A study of Mus musculus with 12 samples.

Results

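The genes described here write, erase and read the marks on chromatin, move nucleosomes or encode histones, and they were followed in RNA from mouse kidney cortex. Members are the array probes whose annotated gene symbol begins with the names of histone deacetylases (Hdac, Sirt), acetyltransferases (Kat), ING readers (Ing), histone methyltransferases (Kmt, Setd, Suv, Ezh, Dot1l), demethylases (Kdm), DNA methyltransferases (Dnmt), remodellers (Smarc, Arid, Chd), bromodomain and chromobox proteins (Brd, Cbx) or histones. The histone names are those that begin with Hist, or with H1, H2 or H3 followed by a or f, so other histone names are not covered. Of 15600 probes on the array, 136 match these names. Of these, 129 carry 1 symbol and stand for 83 of the 6786 genes named on the array, and 7 carry several symbols and are left unnamed. The rule itself reads names and no measured value. Of the 129 probes, 68 probes of 52 genes were bright enough to be measured, and 61 probes were not, which left 31 genes without a value. These were Arid1b, Arid4a, Brd8, Cbx5, Chd1, Chd7, Chd9, Dnmt3a, Ezh1, Ezhip, H1f8, H2ac24, H2ac8, Kat2b, Kat6b, Kat7, Kat8, Kdm1a, Kdm3b, Kdm4a, Kdm5a, Kdm5b, Kdm5c, Kmt2c, Setd2, Setd6, Smarca1, Smarca4, Smarcc1, Smarcd1 and Smarce1, and nothing is said here of their levels.

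The study hybridised RNA of 6 kidney cortex samples to 12 arrays with 2 colours each. Treatment is labelled Control for 3 samples and VCD for the 3 menopausal ones. VCD usually means vinylcyclohexene diepoxide, which destroys ovarian follicles and is used to model menopause in mice. Each cortex sample lay on 4 arrays, and 6 arrays paired samples of opposite groups. All groups are cortex of mouse kidney. The strain, sex and age of the mice, the dose and timing of VCD, the ovarian state that was reached, and any pooling of mice are not stated in the labels. The p-values therefore rest on the spread of these 6 samples alone, which may be technical. In whole cortex, fewer cells of a type and less RNA per cell cannot be told apart.

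DNA in the nucleus is wrapped around histones, and chemical groups on the histone tails help to decide which genes are read. Acetylation, laid down by acetyltransferases and removed by deacetylases and sirtuins, goes with open chromatin, while methyl groups mark active or silent genes depending on the residue. Bromodomains read acetylated lysines, chromodomains read methylated lysines, and remodellers spend ATP to move nucleosomes. Replacement histones such as those of H2az1 and H3f3b are made outside DNA replication too, as in the slowly dividing cells of the kidney tubule, unlike the bulk histones, whose messages mostly lack a poly(A) tail.

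The probes are spotted cDNA clones, whose sequence is in none of the files used here. The promoters of 4 members that the results turn on are shown instead, from RefSeq on the build GRCm38.p6: the replacement histone genes H2az1 and H3f3b, most of whose probes ranked the samples alike, and Dot1l and Hdac2, the members with the smallest unadjusted p. Each runs 5′ to 3′ on the strand of the gene, from 250 bases before the annotated start to 50 bases after it. Capitals mark the CCAAT box, the TATAAA box and the GGGCGG box on either strand, so each box may also stand as its reverse complement. H2az1 lies at chr3:137864237-137864536 on the plus strand, H3f3b at chr11:116024455-116024754 on the minus strand, Dot1l at chr10:80754953-80755252 on the plus strand and Hdac2 at chr10:36974294-36974593 on the plus strand.
H2az1: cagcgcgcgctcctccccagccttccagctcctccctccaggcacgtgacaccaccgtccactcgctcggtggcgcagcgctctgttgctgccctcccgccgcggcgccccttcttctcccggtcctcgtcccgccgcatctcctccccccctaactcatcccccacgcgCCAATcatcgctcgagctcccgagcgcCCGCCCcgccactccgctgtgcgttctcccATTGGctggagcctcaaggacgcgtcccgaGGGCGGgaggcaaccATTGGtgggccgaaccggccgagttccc
H3f3b: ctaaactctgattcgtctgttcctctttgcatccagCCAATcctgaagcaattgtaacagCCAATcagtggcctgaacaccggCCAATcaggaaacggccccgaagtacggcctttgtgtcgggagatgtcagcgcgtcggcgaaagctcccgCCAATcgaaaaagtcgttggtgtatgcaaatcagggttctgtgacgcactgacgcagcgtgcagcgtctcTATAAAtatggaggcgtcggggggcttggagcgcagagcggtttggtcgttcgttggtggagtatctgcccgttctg
Dot1l: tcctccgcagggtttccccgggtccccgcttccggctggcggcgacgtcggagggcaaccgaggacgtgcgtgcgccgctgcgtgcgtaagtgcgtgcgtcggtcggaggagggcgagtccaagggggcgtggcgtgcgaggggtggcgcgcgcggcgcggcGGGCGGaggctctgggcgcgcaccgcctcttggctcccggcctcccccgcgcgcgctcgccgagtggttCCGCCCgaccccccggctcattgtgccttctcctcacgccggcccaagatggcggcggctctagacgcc
Hdac2: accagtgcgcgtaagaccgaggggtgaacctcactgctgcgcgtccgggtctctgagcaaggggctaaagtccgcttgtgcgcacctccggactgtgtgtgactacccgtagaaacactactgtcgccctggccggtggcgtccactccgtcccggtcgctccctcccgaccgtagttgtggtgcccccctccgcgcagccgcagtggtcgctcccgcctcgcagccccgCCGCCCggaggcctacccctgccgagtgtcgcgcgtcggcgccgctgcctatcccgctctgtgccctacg
The H2az1 promoter holds 3 CCAAT boxes and 2 GGGCGG boxes, and that of H3f3b holds 4 CCAAT boxes and 1 TATAAA box. The Dot1l promoter holds 2 GGGCGG boxes, that of Hdac2 holds 1, and neither holds a CCAAT or a TATAAA box in this window. They contain 34, 24, 49 and 36 CpG dinucleotides in the order shown. Of 83 member genes, 67 matched the promoter table, with 93 promoters. Their median was 27 CpG dinucleotides, against 7 over all 32851 promoters of the table. GGGCGG stood in 73.1% of the member promoters and in 35.7% of all promoters, CCAAT in 41.9% and 37.4%, and TATAAA in 5.38% and 13.6%. A box is a match of letters only, and these shares describe the genes and not the samples.

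No member passed the test between menopausal and control cortex. Values are log2 ratios relative to the mean of the 6 samples, after print-tip loess, which removes a dye bias separately in each printed block of the slide. Over the 68 member probes the difference, menopausal minus control, ran from -0.30 to 0.16 with a median of -0.012, and 32 were higher and 36 lower. The median over all 7682 probes fitted was 0.0011. In limma's moderated test with Benjamini-Hochberg adjustment over all 7682 probes, 0 probes were called at an adjusted p under 0.05, which is 0% of the array, and 0 of the 68 members. The smallest adjusted p was 0.923. At an unadjusted p under 0.05, 1 member probe (1.47%) was higher where 2.54% of the array was, and 5 (7.35%) were lower where 2.34% of the array was.

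The precision of a difference was limited by 3 samples a group. The median SE of a member's difference was 0.084 and the median 95% interval reached 0.19 to either side. The widest interval of any member, that of a H2az1 probe, reached -0.59. The intervals cover the spread of the 6 values under print-tip loess and normexp only. With global loess, 1 curve over the whole slide, 2 members fell outside their own interval: Cbx7, at 0.049 against -0.23 to -0.00099, and Kmt5b, at 0.14 against -0.12 to 0.099. With plain subtraction further members fell outside their interval, and Hdac3 lay lowest of the named ones, at -1.12 against -0.22 to 0.082. Others were probe a of Ing1, at 0.58 against -0.019 to 0.34, and Suv39h2, at -0.42 against -0.24 to 0.12. The intervals thus understate how far the processing can move a value. The plot of differences by family shows all 68.

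**Figure D1:**
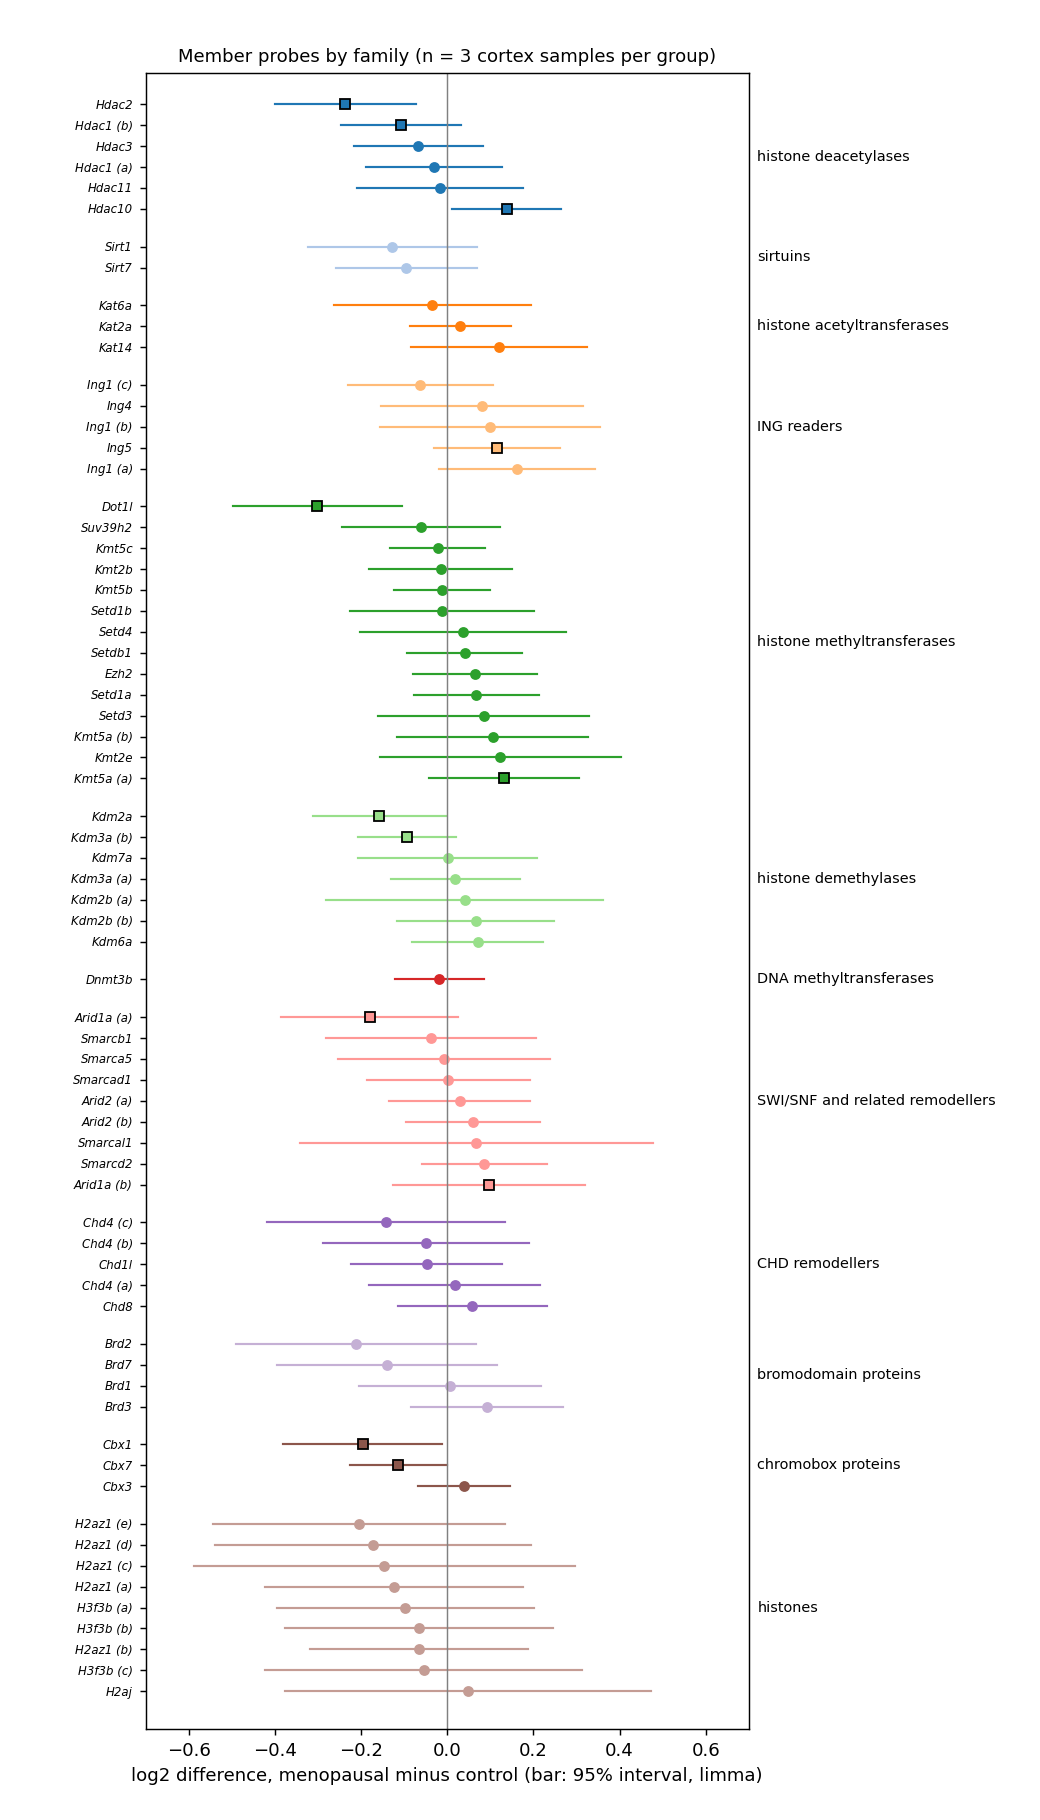
Log2 difference between menopausal and control cortex (horizontal axis) for each of the 68 member probes, grouped by family, with limma's 95% interval as a bar. Squares with a black edge are the 12 probes whose 3 menopausal values all lie on 1 side of the 3 control values, and letters tell apart probes of the same gene. The points run from -0.30 to 0.16, and most bars cross 0.

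In 12 member probes of 11 genes the 3 menopausal values all lay on 1 side of the 3 control values. In 8 of them (11.8%) the menopausal samples were lower, against 5.86% of all probes. In 4 (5.88%) they were higher, against 6.17% of all probes. The 8 lower probes belong to Dot1l, Hdac2, Cbx1, Arid1a, Kdm2a, Cbx7, Hdac1 and Kdm3a, and the 4 higher ones to Hdac10, Kmt5a, Ing5 and a second probe of Arid1a. The plot of values by sample shows each of them.

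**Figure D2:**
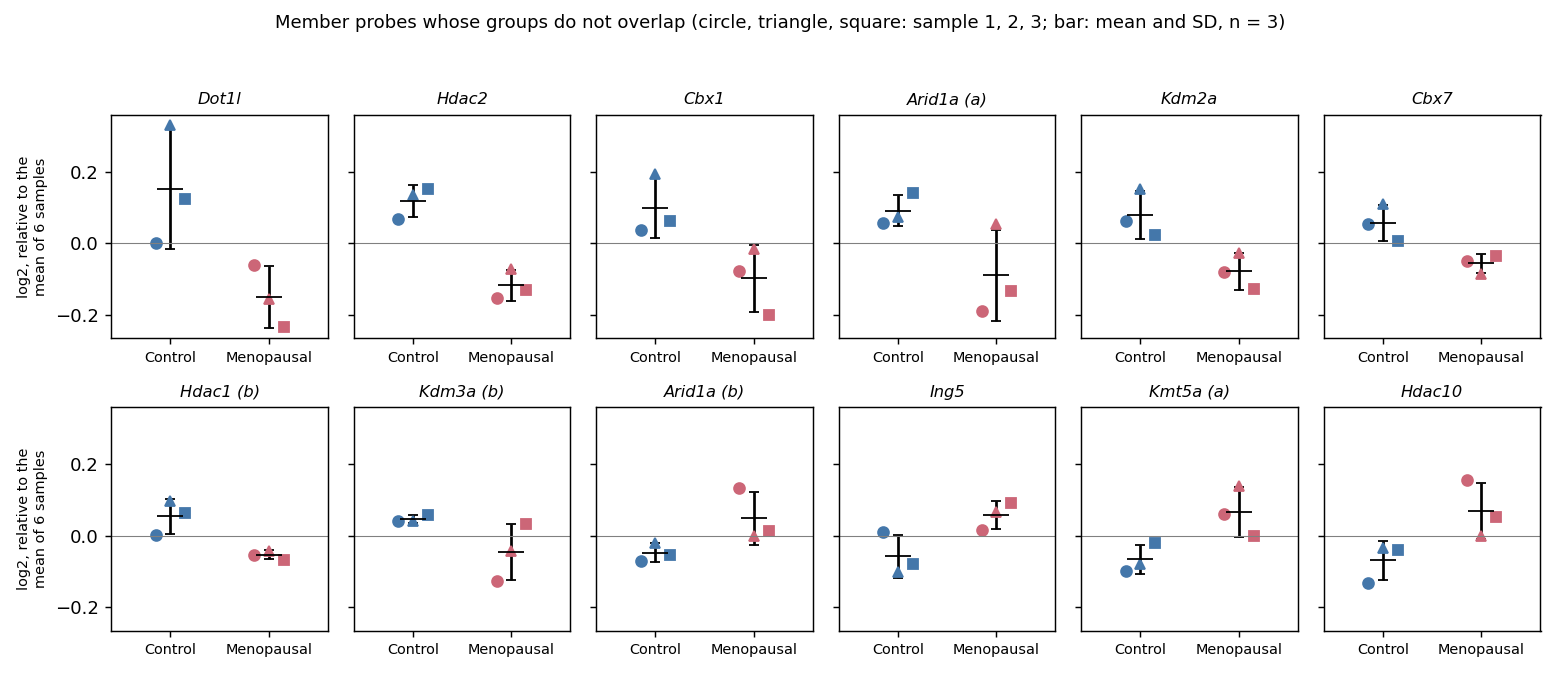
Log2 value relative to the mean of the 6 samples (vertical axis) in control and menopausal cortex for the 12 member probes whose groups do not overlap. Points are cortex samples, and the bars give the mean and SD of 3 samples. In Dot1l, at the upper left, the control samples spread from -0.00077 to 0.33 and the lowest menopausal sample lies at -0.23.

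Among the writers of histone methylation, Dot1l, the enzyme that methylates the core of histone H3 in transcribed genes, had the lowest difference of all members. Control samples 1 to 3 read -0.00077, 0.33 and 0.12, and menopausal samples 1 to 3 read -0.061, -0.16 and -0.23. Control 2 stood highest, and the groups did not overlap, although Control 1 and Menopausal 1 were close. The control mean was 0.15 ± 0.17 and the menopausal mean -0.15 ± 0.087 (SD, n = 3 each), a difference of -0.30 with an SE of 0.086 and a 95% interval of -0.50 to -0.11. The probe was above background in 0 of 4 measurements of Control 2, in 0 of 4 of Menopausal 1 and in 2 to 4 of 4 of the other samples, so the highest value and the size of the difference rest on dim spots. By limma the unadjusted p was 0.00716 and the adjusted p 0.923. Without Control 2 the difference was -0.067, and without Control 1 it was -0.43.

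The other 13 probes of methyltransferases lay between -0.060 and 0.13, and 8 of all 14 were higher. With global loess Kmt5b, Setd1a, Suv39h2 and Kmt5c changed sign, Kmt5b from -0.013 to 0.14, so this count has no firm direction. Kmt5a, which adds the first methyl group to the tail of histone H4, had 2 probes, at 0.13 and 0.11, of which probe b was -0.0062 with scaling between arrays. Probe a read -0.10, -0.078 and -0.020 in the controls and 0.061, 0.14 and -0.0018 in the menopausal samples. The groups did not overlap there, with Control 3 and Menopausal 3 nearly touching, while on probe b Control 3 lay among the menopausal samples. Ezh2, which places the Polycomb mark on H3, differed by 0.064 (95% interval -0.080 to 0.21), and Setd1a, an H3 methyltransferase of active promoters, by 0.067 (95% interval -0.078 to 0.21). Kmt5c, which adds further methyl groups to H4, differed by -0.022 (95% interval -0.13 to 0.088). Suv39h2, which methylates H3 in heterochromatin, differed by -0.060 (95% interval -0.24 to 0.12). All 4 intervals include 0. Kmt2b, Kmt2e, Kmt5b, Setd1b, Setd3, Setd4 and Setdb1, which the rule for naming genes did not pick, lay between -0.015 and 0.12. The only measured DNA methyltransferase, Dnmt3b, which sets new methylation on DNA, differed by -0.018 with a 95% interval of -0.12 to 0.086, among the narrower ones. Dnmt3a was below the brightness filter.

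The acetyltransferases were measured for 3 of 7 genes. Kat2a, the catalytic subunit of the SAGA and ATAC complexes, was the steadiest of the 3, with 0.0051, -0.017 and -0.034 in the controls and -0.00011, 0.051 and -0.0048 in the menopausal samples. Its difference was 0.031 with a 95% interval of -0.087 to 0.15. Kat14, another subunit of ATAC, differed by 0.12, and this rested on Menopausal 3 at 0.26, while the other menopausal samples lay within the control range. The Kat14 probe was above background in 1 of 4 measurements of Menopausal 3, so its difference rests on dim spots. Kat6a, which acetylates histone H3, differed by -0.034. Its menopausal samples read 0.055, 0.14 and -0.25 and spanned more than the controls, at -0.083, 0.027 and 0.11. The Kat6a probe was above background in 6 of 12 control and 3 of 12 menopausal measurements, with 0 of 4 in Menopausal 1. It passed the brightness filter only through the controls, and the menopausal spread rests on dim spots.

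Among the erasers of acetylation, 5 of 6 deacetylase probes were lower, with a median of -0.049, and all 6 kept their sign with global loess, median centring and scaling between arrays. Other settings turned 4 of the 6: probe a of Hdac1 (0.0014) and Hdac3 (0.085) with the spot mean in place of the spot median, and Hdac11 (0.024) and Hdac10 (-0.014) with no background subtraction. Hdac2, a class I deacetylase of the NuRD, Sin3 and CoREST corepressor complexes, read 0.067, 0.14 and 0.15 in the controls and -0.15, -0.071 and -0.13 in the menopausal samples. All 3 control samples were above 0 and all 3 menopausal samples below it, and the samples within each group lay closer to one another than for Dot1l. The means were 0.12 ± 0.045 and -0.12 ± 0.042 (SD, n = 3 each), and the difference was -0.24 with an SE of 0.072 (limma, unadjusted p = 0.0101, adjusted p = 0.923). This probe was above background in 1 of 4 measurements of Control 2 and in 3 or 4 of 4 of the other samples. A second Hdac2 probe was below the brightness filter. Without Menopausal 3 the difference was -0.066.

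Its close relative Hdac1, which sits in the same complexes, had 2 probes at -0.031 and -0.11. On probe b the controls read 0.00067, 0.096 and 0.065 and the menopausal samples -0.053, -0.041 and -0.067, without overlap, while the groups overlapped on probe a. Hdac3, the deacetylase of the NCoR and SMRT corepressors, differed by -0.067 (95% interval -0.22 to 0.082). Hdac11, the class IV enzyme, differed by -0.017 (95% interval -0.21 to 0.18). Hdac10, a class IIb enzyme known as a deacetylase of polyamines, had the opposite sign. It read -0.13, -0.034 and -0.040 in the controls and 0.15, -0.0012 and 0.053 in the menopausal samples, with Menopausal 1 highest and Control 1 lowest. The difference was 0.14 with an SE of 0.056 (limma, unadjusted p = 0.037, adjusted p = 0.923), the only member higher at an unadjusted p under 0.05. The Hdac10 probe was above background in 4 of 12 control and 6 of 12 menopausal measurements. It thus passed the brightness filter only through the group where it was higher, and its p and its separation rest on dim spots. Sirt1, the NAD-dependent deacetylase studied in kidney stress, differed by -0.13 and Sirt7, a nucleolar sirtuin, by -0.095, with 95% intervals of -0.32 to 0.069 and -0.26 to 0.069.

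The histone demethylases were measured for 5 of 11 genes, with 5 probes higher and 2 lower, 1 of the higher ones, Kdm7a, at -0.16 with global loess. Kdm2a, which removes methyl groups from H3 and binds CpG islands, read 0.062, 0.15 and 0.023 in the controls and -0.079, -0.028 and -0.13 in the menopausal samples. The groups did not overlap, and the difference was -0.16 with an SE of 0.067 (limma, unadjusted p = 0.0457, adjusted p = 0.923). Its paralog Kdm2b had 2 probes at 0.040 and 0.066. On the first of these Control 1 read 0.25 and Control 2 read -0.31, so that the controls differed more among themselves than the groups did. Kdm3a, a hypoxia-induced demethylase of H3, differed by -0.092 on probe b, where the groups did not overlap, and by 0.019 on probe a, where they did. On probe b Control 1 at 0.040 and Menopausal 3 at 0.032 nearly met, each above background in 1 of 4 measurements. Kdm6a, which removes the Polycomb mark and escapes X inactivation, differed by 0.071 (95% interval -0.082 to 0.22), and Kdm7a, which removes repressive marks of H3, by 0.00086 (95% interval -0.21 to 0.21).

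Of the 3 chromobox readers with a value, Cbx1 and Cbx7 were lower without overlap and Cbx3 was not. Cbx1, the heterochromatin protein HP1 beta, read 0.037, 0.19 and 0.063 in the controls and -0.077, -0.017 and -0.20 in the menopausal samples, with a difference of -0.20 and an SE of 0.081 (limma, unadjusted p = 0.0399, adjusted p = 0.923). It was -0.0029 without Menopausal 3. Cbx7, a Polycomb subunit that binds methylated H3, read 0.054, 0.11 and 0.0075 in the controls and -0.049, -0.085 and -0.035 in the menopausal samples, a difference of -0.11 (limma, unadjusted p = 0.0484, adjusted p = 0.923). With global loess the Cbx7 difference turned to 0.049. The Cbx7 probe was above background in 1, 1 and 2 of 4 measurements of Controls 1 to 3, so the higher control values rest on dim spots. Cbx3, the heterochromatin protein HP1 gamma, differed by 0.039 with a 95% interval of -0.068 to 0.15, and by -0.024 with global loess.

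The bromodomain readers were split 2 to 2. Brd2, a BET protein that binds acetylated H4, was lowest at -0.21, yet Control 1 at -0.13 lay with the menopausal samples at -0.13, -0.14 and -0.046, and the 95% interval ran from -0.49 to 0.066. Brd7, a subunit of the PBAF remodeller, differed by -0.14, Brd3, another BET protein, by 0.092, and Brd1, a partner of acetyltransferases, by 0.0066. Of the ING readers, which recognise the methylated H3 of active promoters, 4 of 5 probes were higher, with a median of 0.098, and with global loess the fifth, probe c of Ing1, was higher too, at 0.10. Ing5 read 0.010, -0.10 and -0.081 in the controls and 0.015, 0.065 and 0.092 in the menopausal samples. The groups did not overlap, but Control 1 and Menopausal 1 nearly met, and the difference was 0.11 (95% interval -0.032 to 0.26). Ing4, a reader in an acetyltransferase complex, differed by 0.080. The 3 probes of Ing1, a subunit of the Sin3 corepressor, disagreed in sign, at 0.16, 0.098 and -0.062. Probe a, the highest of all members, was above background in 3 of 12 control and 7 of 12 menopausal measurements. It thus passed the brightness filter only through the group where it was higher.

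The SWI/SNF and related remodellers had 6 probes higher and 3 lower, with a median of 0.029, and 2 of the higher ones, Smarcd2 and Smarcad1, were at -0.016 and -0.057 with global loess. Arid1a, the DNA-binding subunit of the BAF complex, gave opposite answers on its 2 probes, each without overlap. Probe a read 0.058, 0.073 and 0.14 in the controls and -0.19, 0.052 and -0.13 in the menopausal samples, a difference of -0.18. Probe b read -0.072, -0.019 and -0.053 and 0.13, -0.001 and 0.012, a difference of 0.096. No direction can be given for this gene, and its probes show that separation of 3 from 3 samples on 1 probe need not hold on another. Both probes of Arid2, the matching subunit of PBAF, were close to 0, at 0.029 and 0.059. Smarcd2, an accessory subunit, differed by 0.086, Smarcb1, a core subunit of these complexes, by -0.037, and Smarca5, the ISWI ATPase, by -0.0075, with 95% intervals that include 0. Smarcad1 and Smarcal1, not picked by that rule, were at 0.0026 and 0.068.

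Of the CHD remodellers, Chd4, the ATPase of NuRD, had 3 probes at 0.017, -0.049 and -0.14. Control 2 was the highest of the 6 samples on all 3 probes, and the groups overlapped on each. Chd8, which binds beta-catenin, differed by 0.058, and Chd1l, a remodeller recruited by poly(ADP-ribose), by -0.048.

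The histone genes had the widest spread between samples. Of the 6 histone genes on the array that the member names cover, 3 had a value, over 9 probes. In menopausal cortex 8 of the 9 were lower, with a median of -0.097. However, all 3 H3f3b probes were above 0 with median centring and probe b of H2az1 was at 0.066 with scaling between arrays. Without Menopausal 3, probes a and c of H2az1 were at 0.053 and 0.037, without Control 1 probe c of H3f3b was at 0.11, and without Control 2 probe e of H2az1 was at -0.017. By limma 0 of the 9 were called, 0 had an unadjusted p under 0.05, and the groups overlapped on all 9. H2az1 encodes the replacement histone H2A.Z, found around the start sites of genes, and its 5 probes differed by -0.12, -0.064, -0.15, -0.17 and -0.20. H3f3b encodes the replacement histone H3.3, laid into transcribed genes, and its 3 probes differed by -0.097, -0.065 and -0.055. The median SE of the histone probes was 0.15, against 0.084 over all members.

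Probe d of H2az1 read 0.25, -0.047 and 0.051 in the controls and -0.022, 0.12 and -0.35 in the menopausal samples. Probe c of H3f3b read 0.26, -0.19 and 0.0062 and -0.092, 0.19 and -0.18. On 4 H2az1 probes and on all 3 H3f3b probes Menopausal 3 was the lowest sample of its group, and on 3 of those 4 and on all 3 of these Control 1 was the highest control and Menopausal 2 the highest menopausal sample. Probe e of H2az1 stood apart, with Control 2 highest at 0.36, so that 1 gene gave probe values up to 0.54 apart in a single sample. H2A.Z and H3.3 each have a second gene with a near-identical protein, and cDNA probes of such families can share signal, so these values are uncertain as to the gene.

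**Figure D3:**
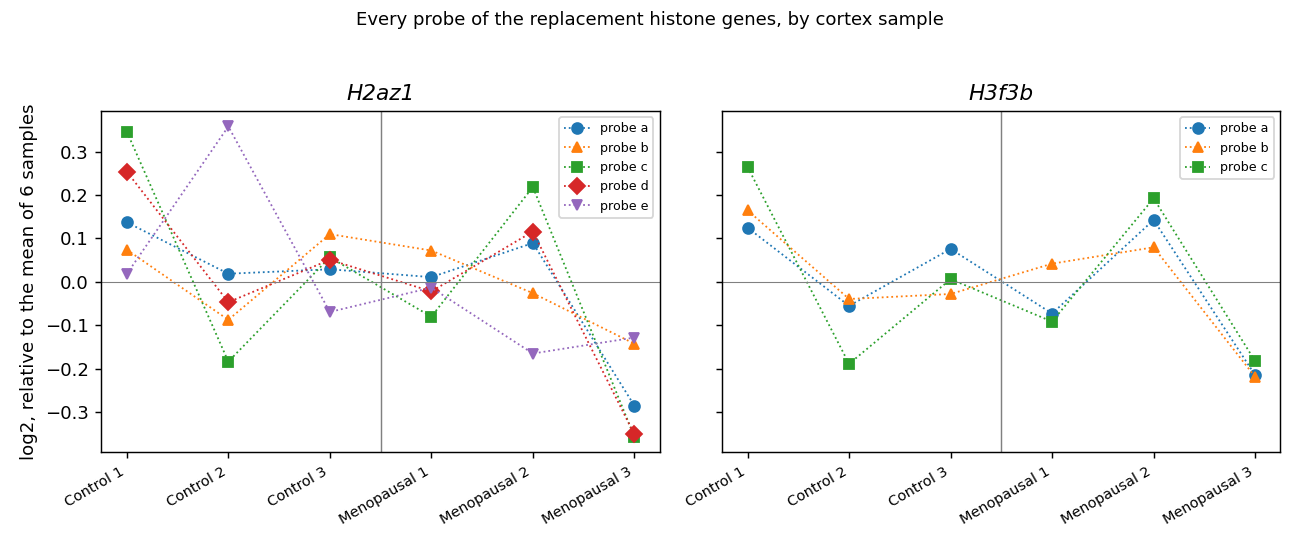
Log2 value relative to the mean of the 6 samples (vertical axis) in each cortex sample for the 5 probes of H2az1 and the 3 probes of H3f3b. Dotted lines only join the values of a probe, since the samples of a group have no order. Control 1 and Menopausal 2 lie high and Menopausal 3 low on most probes, and H2az1 probe e differs in Control 2.

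The median of the 9 histone probes was 0.14, -0.047, 0.029, -0.013, 0.089, -0.22 in Control 1, 2, 3 and Menopausal 1, 2, 3. That of 5 proximal tubule probes, for Gatm, Gpx3, Miox and Lrp2, was 0.12, -0.12, 0.044, -0.13, 0.18, -0.061 in the same order, highest in Control 1 and Menopausal 2 as well, but lowest in Menopausal 1. The markers did not move as one: Gpx3 read -0.17 in Control 1 and -0.21 in Menopausal 2, where Gatm read 0.20 and 0.36. Of 17 proximal tubule markers listed, 4 genes were on the array and all 4 passed the brightness filter, and their groups overlapped. The part of cell composition in the histone values was not tested. The replication-linked histone genes H2ac8 and H2ac24 and the oocyte linker histone gene H1f8 were below the filter. H2aj, a replacement-type H2A gene, read -0.38, 0.39 and -0.083 in the controls and 0.11, -0.21 and 0.17 in the menopausal samples, and the controls spanned the widest range of any member.

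How far samples of 1 group differed was asked with limma's moderated F over the 12 arrays, whose error is that between arrays of the same RNA. Among the controls, 83 of 7682 probes (1.08%) differed at an adjusted p under 0.05, and 0 of 68 members. Among the menopausal samples, 29 probes (0.378%) differed, and 0 members. At an unadjusted p under 0.05, 8 members (11.8%) differed among the controls, where 13.7% of the array did. Among the menopausal samples, 6 members (8.82%) did, where 13.1% of the array did. The counts over all probes changed when a sample was left out. The first was 0 without Control 3, 23 without Control 1 and 27 without Control 2. It was 45, 107 and 47 without Menopausal 1, 2 and 3. The second was 0 without Control 1, Menopausal 1 or Menopausal 3. It was 1 without Control 3, 7 without Menopausal 2 and 21 without Control 2. Leaving out a sample also takes away its 4 arrays and weakens the test, so a lower count need not come from that sample. The smallest adjusted p of a member was 0.185 in both tests, for H2aj among the controls and for Setd4 among the menopausal samples. Setd4, a SET-domain methyltransferase chosen here after its values were seen, read 0.057, 0.062 and -0.17 in the controls and 0.22, 0.013 and -0.17 in the menopausal samples, with the third sample low in both groups. Smarcal1, an annealing helicase also chosen after its values were seen, read 0.42, -0.24 and -0.080 in the menopausal samples, the widest menopausal range of any member.

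The values depended on how dye bias was removed. With 1 global loess curve per array in place of 1 per printed block, 14 of the 68 member differences changed sign, and 43 either did so or moved by over 1.5 times in size. The block of the slide accounted for a share of 0.316 of the variance of the group difference over all probes with the global curve and of 0.0051 with the print-tip curves. Under the global curve 3 member probes were lower without overlap, not 8, and 2 were lower at an unadjusted p under 0.05, not 5. Over all probes, 228 were lower at that threshold under the global curve, against 180 with the print-tip curves. The member count thus fell where that of the array rose. Probes without overlap were not counted over the array under the global curve. With that curve Dot1l was -0.35, Cbx1 -0.31, Hdac2 -0.15 and Kdm2a -0.093. The plot of both normalizations shows that these 4 kept their sign.

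**Figure D4:**
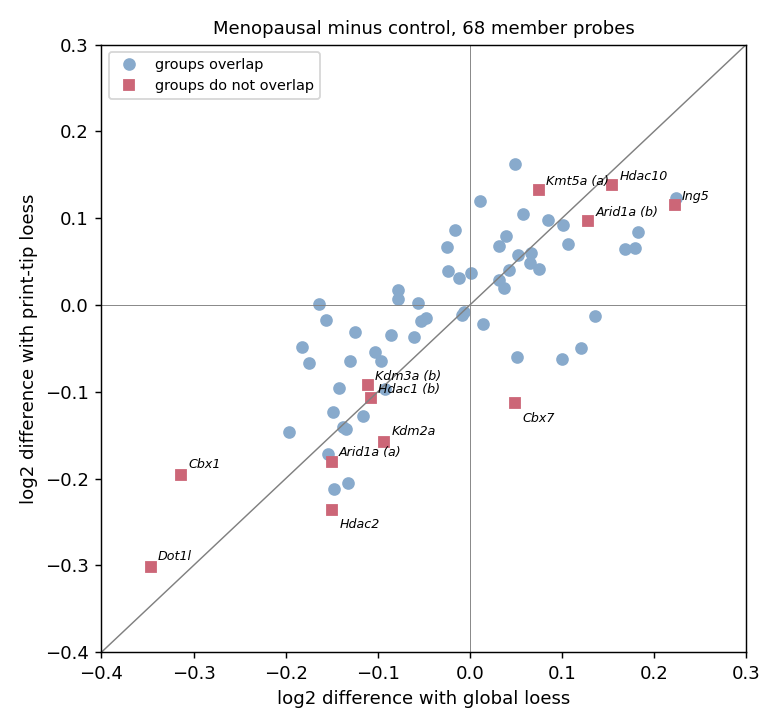
Log2 difference, menopausal minus control, of the 68 member probes with 1 loess curve per array (horizontal axis) and with 1 curve per printed block (vertical axis). The grey diagonal marks equal values, and red squares are the 12 probes whose groups do not overlap on the vertical scale. Cbx7 is the only labelled probe with opposite signs, at 0.049 and -0.11.

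The signs and the count of lower members also changed when single samples were left out. Without Menopausal 3, 30 of the 68 differences changed sign, and without Control 2, 19 did. Without Control 2, 0 member probes were lower at an unadjusted p under 0.05, 2 were without Menopausal 3, 3 were without Control 3 or Menopausal 2, and 7 were without Control 1. Over all probes this count was 180 with all samples. It was 296 without Control 2, 206 without Menopausal 3, 119 without Control 3, 179 without Menopausal 2 and 267 without Control 1. The 8 members that were lower without overlap became 4 without Control 2, 5 without Menopausal 3, 13 without Menopausal 2 and 15 without Control 1, with fewer samples left to separate. Such probes were not counted over the array in these settings. Control 2 had the fewest member measurements above background, 32.4%, and Control 3 the most, 52.5%, close to the 31.6% and 52.0% of the whole array. Control 2 was the highest control on Dot1l, Cbx1, Cbx7 and Kdm2a. Of 10 member genes with 2 or more measured probes, 6 had all their probes on 1 side of 0. The exceptions were Arid1a, Chd4, Ing1 and Kdm3a.

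Other genes of chromatin control, from a list of 207 symbols outside the member names, were set beside the members. Of these, 118 were on the array and 84 had a value, over 113 probes, of which 51 were higher and 62 lower, with a median of -0.016. By limma 0 were called at an adjusted p under 0.05, and at an unadjusted p under 0.05, 2 (1.77%) were higher and 3 (2.65%) lower, against 2.54% and 2.34% of the array. Among the members 1.47% were higher and 7.35% lower, so the larger share of lower probes was not seen here. With global loess the median was 0.0026 and 32 of the 113 changed sign. The 2 higher were Bap1, a deubiquitinase of H2A, at 0.23, and Asf1a, a histone chaperone, at 0.20. The 3 lower were Jarid2, which recruits the Polycomb methyltransferase, at -0.36, Stag1, a cohesin subunit, at -0.27, and Mta3, a NuRD subunit, at -0.23. With global loess Mta3 was at -0.026, Bap1 at 0.071 and Jarid2 at -0.22.

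The subunits of deacetylase corepressors, among them Tbl1xr1 of the NCoR and SMRT complexes of Hdac3, had 5 probes higher and 8 lower, over 12 genes, with a median of -0.079. Beside Mta3, its relative Mta2 was lower without overlap at -0.18, and Rbbp4, the histone-binding subunit, was lowest at -0.40 with overlapping groups (limma, unadjusted p = 0.0636). Markers of dividing cells, Ccna2, Rrm2, Pcna and Cdk1, had a median of -0.079 over 6 probes, 5 of them lower and 2 without overlap. These are 4 of the 10 listed genes on the array, and 2 of the 6 probes changed sign with global loess. Calb1, the only marker of the distal tubule with a value, had a median of -0.20 over 4 probes, 3 of them lower and 1 without overlap. Podocyte markers had 2 of 2 probes higher, with a median of 0.094, and red cell markers 2 of 3, with a median of 0.082. Fxyd4 of the collecting duct differed by 0.014. Emcn of the endothelium, Col3a1 of the mesenchyme and Lyz2 of immune cells differed by -0.015, -0.097 and -0.15. The part of any cell type in the lower deacetylase and chromobox values was not tested.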

How the data were processed

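RNA of 3 control and 3 menopausal kidney cortex samples was hybridised in pairs to 12 arrays in 2 colours. Per the file headers, each of the 12 tables the authors deposited holds raw spot intensity and local background for both channels. The image software, genome build and wavelength of each dye are not stated, and the shorter wavelength was taken as channel 1. The deposited value table, whose columns an earlier analysis of these data could not match to the arrays of their labels, was not used here, so directions between groups depend on how the scanner tables are labelled. Probe names rest on a mirrored layout of the slide, chosen from the values: under it 3477 pairs of probes of the same gene had brightness correlated across genes at r = 0.58, against 0.031 in the order of the tables.

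Computed with limma 3.58.1 in R 4.3.3: normexp on spot medians with an offset of 50, print-tip loess, weight 0 for spots marked abnormal, and the mean of the 2 copies of a probe. A probe was kept if foreground minus background was above 2 SDs of the background in 6 or more of a group's 12 measurements. This left 7683 probes, of which 7682 could be fitted. Of the 68 member probes, 13 passed through 1 group only, and 6 of these were higher in that group. Between 16.5% and 76.8% of an array's spots were above background. Least squares, with the dye as a term, turned the 12 arrays into 6 sample values, which share arrays, so their errors are not independent. These were compared 3 against 3 by limma's moderated test with an intensity trend, two-sided, with Benjamini-Hochberg adjustment. The number of arrays limits the precision.

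In a family of up to 6 measured genes every gene was named, in a larger one the 3 genes with the smallest p in each direction, with every member whose groups did not overlap and every gene with 2 or more measured probes. The members and the gene lists were chosen with earlier results of these data known. The 129 member probes carry 83 symbols, used as the annotation gives them, and promoters were looked up by symbol. Samples with the same number in both groups were not treated as pairs. The correlations of same-numbered deviations were -0.36, -0.52 and -0.11. Same-numbered samples never shared an array, while differently numbered ones did and so share array errors. These correlations therefore cannot decide whether a number marks a pair. The scripts were tested on simulated data. Alternatives covered the normalization, background, spot statistic, spot marks, filter, array weights, blocks, and leaving out each sample or array.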

Additional observations from a re-analysis of the deposited data

How the results depend on the processing

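No member was called between menopausal and control cortex under any of the 33 alternatives run, including global loess, other backgrounds and filters and leaving out each sample or array. With the arrays taken as replicates, 5 probes of the array were called and 0 members. With the sample number as a replicate block, 0 probes were called, and 2 members were lower and 0 higher at an unadjusted p under 0.05. Over all probes, 113 were lower and 149 higher at that threshold. The 12 probes without overlap stay the same there by construction, since this block does not enter the sample values. With the slide range or the repeat mark of a scan as a block, 0 probes were called. There 5 and 4 members were lower at an unadjusted p under 0.05, and 190 and 158 of all probes. The count of probes that differed among the control samples, 83, was 127 with scaling between arrays, 145 with plain subtraction, 35 with no background subtraction, 46 with no filter, 165 with only probes above background in all 24 measurements, and 0 to 107 without single samples or arrays. Members were called there in 2 settings: 1 with scaling (Kmt2e) and 2 with plain subtraction (Suv39h2 and Kdm2b), names chosen after their values were seen. The count among the menopausal samples, 29, was 15 with global loess, 88 with median centring, 0 with scaling, 11 with plain subtraction, 0 with no background subtraction, 13 with no filter, 84 with array weights, and 0 to 21 without single samples or arrays. Cbx7 turned to 0.049 with global loess. With no background subtraction Hdac10 was -0.014 and probe b of Arid1a was -0.049, and this probe ran from -0.017 to 0.20 without single samples or arrays. The causes were not tested. Of the 68 member differences, 6 changed sign with scaling, 9 with plain subtraction, 14 with global loess, 21 with median centring and up to 30 without a single sample, Menopausal 3. The strict filter left 8 of 68 member probes, with a median of -0.11, and 7 of the 8 belong to H2az1 and H3f3b.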
